A study of Mus musculus with 18 samples.

Results

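The genes described here encode subunits of the serine/threonine protein phosphatases PP1 to PP6, measured in the striatum of control and Camk4 mutant mice 1 h after saline or cocaine. They were chosen by name: every gene whose single annotated symbol starts with Ppp and a digit, without Ppp1r1b (DARPP-32), and with a probe set above log2 4 in at least 3 of the 18 arrays. This gave 43 of the 7583 named genes kept. The array carried 53 such genes, and the other 10 were above log2 4 in none of the 18 arrays. All 43 members passed the level in all 18 arrays, so no member was kept through a single group. The dimmest members were Ppp1r18 (4.99 to 5.56) and Ppp2r3d (4.88 to 5.94), and the nearest genes below the filter were Ppp6r2 (2.82 to 3.23) and Ppp1r42 (2.76 to 3.12).

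These phosphatases remove phosphate from serine and threonine. A small set of catalytic subunits is shared among many regulatory subunits, which choose the substrate and the place in the cell, and several PP1 partners are inhibitors. In the medium spiny neurons of the striatum, PP1 opposes protein kinase A, and DARPP-32 inhibits PP1 when dopamine D1 receptors raise cAMP. Calcineurin, switched on by calcium and calmodulin, removes the phosphate that lets DARPP-32 inhibit PP1, and PP2A acts on other sites of the same protein. CaMKIV, the kinase encoded by Camk4, phosphorylates the transcription factor CREB, and both PP1 and PP2A can remove that phosphate.

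The 4 groups were control mice given saline (3 animals), control mice given cocaine (6), mutant mice given saline (3) and mutant mice given cocaine (6), with 1 array per animal. The animals were littermates aged 10 to 20 weeks, caged singly and handled for 5 days. The cocaine dose was 25 mg/kg by intraperitoneal injection. Cocaine blocks the dopamine transporter. The series title speaks of loss of CaMKIV, but the labels name neither the kind of Camk4 allele nor the sex of the animals. The tissue was the striatum with the nucleus accumbens, a mix of cell types in which fewer cells of a type and less RNA per cell cannot be told apart.

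Groups were taken from the sample titles, because the separate description lines name other groups. Camk4 did not settle the genotype labels. Its brightest probe set was 0.37 ± 0.09 lower in mutants on the log2 scale, averaged over treatments (limma, SE, adjusted p = 0.611, unadjusted p = 8.5e-04). Control arrays stood at 7.52 to 7.76 and mutant saline arrays at 7.14 to 7.47. Mutant cocaine replicate 6 stood at 7.69, within the control range, and the other mutant cocaine arrays at 6.85 to 7.30. Whether the probes lie in an altered part of the gene is not known. Fos, an immediate early gene, rose by 4.55 ± 0.48 after cocaine (limma, adjusted p = 5.5e-04). Of 12 listed markers of medium spiny neurons, 9 were measured, and their mean level was 11.7 to 12.1 in every array. Of 7 listed cortical markers only Tbr1 was measured, at 2.83 to 5.11. Choroid plexus had 3 listed markers, of which only Ttr was measured, at 2.26 to 5.29. Animal numbers in the titles are Arabic for 12 mice (3 of every group) and Roman for 6 mice, all of them given cocaine. Mutant cocaine replicate 5, a Roman-numbered animal, stood apart. Its actin 3′ minus 5′ signal difference, which grows as RNA breaks down, was 3.59 against 1.57 to 2.55 elsewhere. The mean level of the oligodendrocyte markers was 12.3 on it and 11.6 to 12.0 on the other arrays. Several results that rest on this array are given with and without it, and all other values include it unless stated.

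No member passed the threshold in any of the 7 comparisons, which was a limma adjusted p under 0.05 over 12674 probe sets with the numbering series as a term. For cocaine against saline, 0 of 43 members passed in control mice (0.11% of all probe sets did), 0 of 43 in mutant mice (0.0473%) and 0 of 43 averaged over genotypes (0.221%). For mutant against control, 0 of 43 passed after saline, after cocaine or averaged over treatments, and so did 0% of all probe sets in each. The same held for the interaction, the mutant minus the control cocaine response (0 of 43, 0%). At an unadjusted p under 0.05, 2 of 43 members passed for cocaine in control mice (2.6% of all probe sets), 4 in mutant mice (6.95%) and 4 averaged (5.09%). By genotype, 2 passed after saline (2.76%), 6 after cocaine (11.6%), 2 averaged (7.13%) and 0 in the interaction (2.68%). Without mutant cocaine replicate 5 the counts at that p were 5 of 43 for cocaine in control mice (8.85% of all probe sets), 6 in mutant mice (12.7%) and 8 averaged (14.1%). By genotype they were then 2 after saline (5.51%), 5 after cocaine (7.62%), 2 averaged (8.56%) and 2 in the interaction (3.63%).

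The differences were small in most members. The median of the 43 averaged cocaine differences was -0.04 on the log2 scale, beside 0.01 over all named genes, and the median size without regard to sign was 0.06 for both. For mutant against control after cocaine the median difference was -0.04 for the members and 0.03 for all named genes, or -0.027 and 0.0067 without replicate 5. The 95% interval of the averaged cocaine difference lay within 0.5 log2 units of 0 for 39 of 43 members, the exceptions being Ppp1r15a, Ppp3cb, Ppp4r3a and Ppp4r3b. For mutant against control after cocaine it did so for 38 of 43, without Ppp1r14a, Ppp1r15a, Ppp2cb, Ppp3cb and Ppp4r3a. The interaction was measured less precisely, and 31 of 43 intervals lay within 0.5. The mean level over the 43 members moved little between arrays, from 9.42 to 9.52 in control cocaine arrays, 9.45 to 9.48 in control saline, 9.46 to 9.51 in mutant saline and 9.37 to 9.49 in mutant cocaine.

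**Figure D1:**
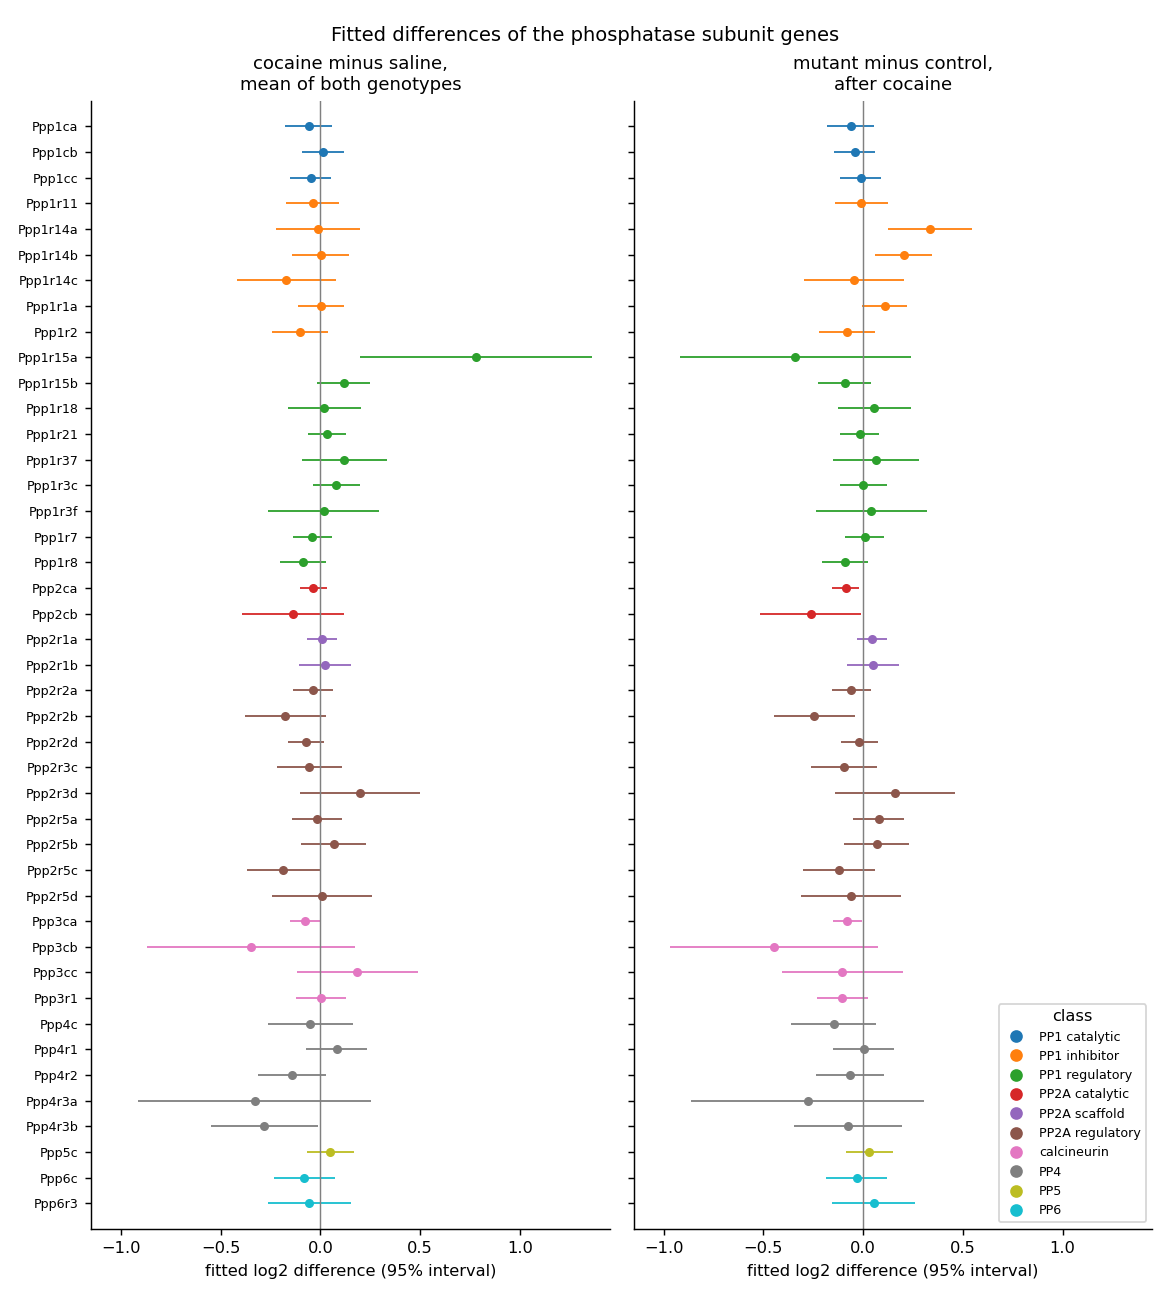
Fitted log2 differences of the 43 subunit genes (x axis, points) with 95% intervals (bars) from the fit over all 18 arrays, for cocaine minus saline averaged over genotypes (left) and mutant minus control after cocaine (right), coloured by class. Most intervals lie close to 0; Ppp1r15a has the highest point on the left (0.78) and Ppp1r14a the highest on the right (0.34), and no member passed the threshold in either comparison.

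Ppp1r15a, a PP1 regulatory subunit, had the smallest p of any member for cocaine in control mice and averaged over genotypes. It encodes GADD34, a stress-induced subunit that directs PP1 to the translation initiation factor eIF2 alpha, and Ppp1r15b encodes the constitutive subunit of the same activity, CReP. In control mice Ppp1r15a stood at 6.95, 7.38 and 7.28 on the log2 scale after saline. After cocaine it stood at 7.48, 7.83 and 9.41 in the Arabic-numbered controls and at 8.25, 8.00 and 8.08 in the Roman-numbered ones. All control cocaine arrays were thus above all control saline arrays, and 1 array at 9.41 was far above the rest. The share of all genes that separate in this way in control mice was not counted. With all 12 cocaine and 6 saline arrays, 0 members were wholly higher after cocaine (0.514% of named genes). Mutant mice had 7.02, 7.27 and 7.02 after saline. The mutant cocaine arrays stood at 7.11, 7.45 and 8.33 (Arabic) and at 7.75, 8.44 and 7.92 (Roman), and the lowest of them overlapped with saline.

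The fitted cocaine difference of Ppp1r15a was 0.90 ± 0.36 in control mice (limma, SE, unadjusted p = 0.0244, adjusted p = 0.9999) and 0.66 ± 0.36 in mutant mice (unadjusted p = 0.0868, adjusted p = 0.66). Averaged, it was 0.78 ± 0.27, with a 95% interval of 0.20 to 1.36 (unadjusted p = 0.0115, adjusted p = 0.836, and 0.113 to 0.976 over the alternatives). The exact two-sided permutation test over the 12 Arabic-numbered arrays gave p = 0.015 from 400 relabellings, which can go no lower than 0.005. That p was not adjusted for the choice of the member with the smallest p. The genotype difference after cocaine was -0.34 ± 0.27, and the interaction was -0.24 ± 0.47. Ppp1r15b differed by 0.19 ± 0.08 in control mice (limma, unadjusted p = 0.0358, adjusted p = 0.9999) and by 0.04 ± 0.08 in mutant mice. Its control arrays spanned 9.50 to 9.64 with saline and 9.56 to 9.84 with cocaine, and the groups overlapped.

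Across the 12 cocaine arrays, the levels of Ppp1r15a and Fos went together, a relation looked at after the data were seen. Pearson's r was 0.787 (permutation p = 0.0069, 0.0207 adjusted over 3 sets of arrays) and Spearman's rho was 0.727 (permutation p = 0.0093, adjusted 0.0278). Without the 2 arrays farthest from the Fos median r was 0.68. Within the 6 Arabic-numbered cocaine arrays r was 0.872 and rho 0.886 (exact p = 0.0333 each, adjusted 0.05). Within the 6 Roman-numbered arrays r was 0.04 (exact p = 0.943) and rho 0.2 (exact p = 0.714), so no relation was seen there. Fos spanned only 10.49 to 11.26 in them, against 7.39 to 11.74 in the Arabic-numbered cocaine arrays. With 6 arrays over that narrow range, a relation could be missed.

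**Figure D2:**
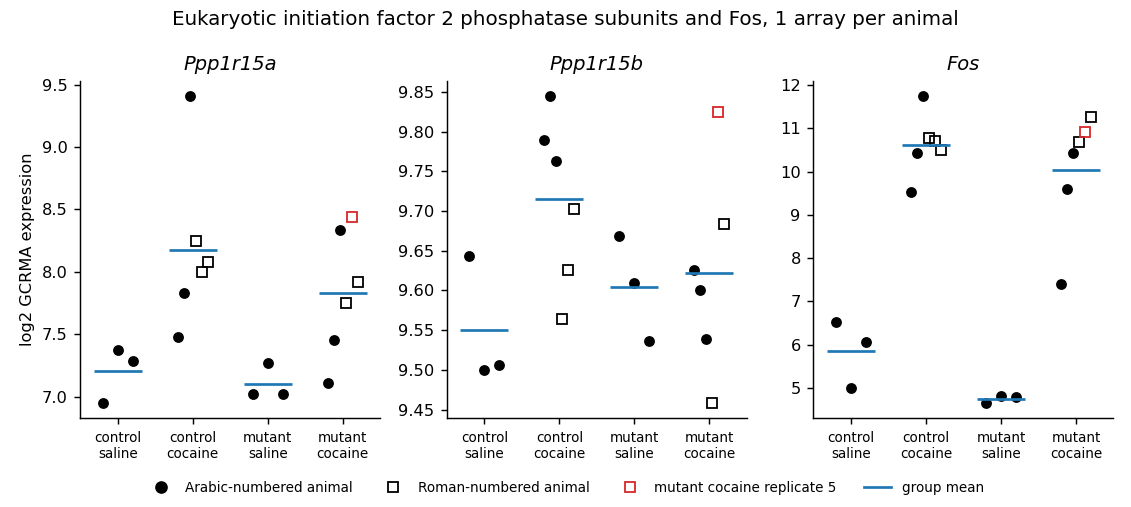
Log2 GCRMA levels (y axes) of Ppp1r15a, Ppp1r15b and Fos in each array of the 4 groups (x axes); filled circles are Arabic-numbered and open squares Roman-numbered animals, red marks mutant cocaine replicate 5, and blue lines are group means. All control cocaine arrays of Ppp1r15a lie above the control saline arrays, with 1 array at 9.41, while its mutant groups overlap. The share of all genes that separate like this in control mice was not counted. Ppp1r15b overlaps between groups.

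The upstream sequence of Ppp1r15a is shown because it holds a full CRE, the palindrome that CREB binds, close to the gene start. RefSeq promoters (GRCm38.p6) were matched by symbol for 34 of the 43 members, and the 250 bases before the annotated start were searched. The CRE was TGACGTCA, which is its own reverse complement. It was found in 3 of 34 members (8.82%), in 3.16% of the 6203 array genes with a promoter and in 1.55% of all 32851 promoters. The members were Ppp1r15a (minus strand, chr7:45526269-45526518), Ppp2ca (plus strand, chr11:52098772-52098823) and Ppp2r2d (plus strand, chr7:138846312-138846358). Each is printed 5′ to 3′ with the CRE in capitals, the 250 bases before the start for Ppp1r15a and a window around the CRE for the others:
Ppp1r15a: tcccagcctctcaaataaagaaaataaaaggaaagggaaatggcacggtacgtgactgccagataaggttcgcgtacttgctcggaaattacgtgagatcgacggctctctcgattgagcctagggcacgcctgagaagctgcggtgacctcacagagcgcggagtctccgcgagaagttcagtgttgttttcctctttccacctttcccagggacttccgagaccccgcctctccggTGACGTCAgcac
Ppp2ca: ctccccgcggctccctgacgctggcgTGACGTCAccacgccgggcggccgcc
Ppp2r2d: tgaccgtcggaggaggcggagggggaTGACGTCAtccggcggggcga
The first base of the CRE lay 12 bases from the gene start in Ppp1r15a, 26 in Ppp2ca and 21 in Ppp2r2d, which has another annotated start 48 bases from the same CRE. The shorter core site TGACG (or CGTCA on the other strand), which every full CRE also holds, was found in 12 of 34 members (35.3%) and in 32.6% of the array genes. The AP-1 motif TGANTCA, searched on both strands, was found in 0 of 34 members, in 5.29% of array genes and in 6.75% of all promoters. Of the 3 genes with the full CRE, Ppp1r15a had the averaged cocaine difference given above, Ppp2ca differed by -0.04 ± 0.03 and Ppp2r2d by -0.07 ± 0.04 (limma, SE), and none passed the threshold.

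The brightest probe sets of the 3 PP1 catalytic subunits differed little between the groups, and another probe set of Ppp1cc differed more. Ppp1ca ran from 13.07 to 13.15 in control saline arrays and from 13.06 to 13.20 in mutant saline arrays. After cocaine it had a lowest, median and highest level of 13.00, 13.07 and 13.17 in control mice and of 12.75, 13.05 and 13.15 in mutant mice, where 12.75 was replicate 5. All 4 groups overlapped. The averaged cocaine differences were -0.06 ± 0.06 for Ppp1ca, 0.01 ± 0.05 for Ppp1cb and -0.05 ± 0.05 for Ppp1cc. The genotype differences after cocaine were -0.06 ± 0.06, -0.04 ± 0.05 and -0.01 ± 0.05. The other probe set of Ppp1cc stood at 10.60 to 10.84 in control saline, 10.66 to 10.72 in mutant saline and 10.50 to 10.94 in control cocaine arrays. In mutant cocaine arrays it stood at 10.36, 10.59, 10.06, 10.63, 9.83 and 10.73 for replicates 1 to 6, with replicate 5 the lowest. Its genotype difference after cocaine was -0.32 ± 0.13 (limma, unadjusted p = 0.0227, adjusted p = 0.427), and its cocaine difference in mutant mice was -0.39 ± 0.17 (unadjusted p = 0.0324, adjusted p = 0.66). A dimmer probe set of Ppp1cb differed by -0.14 ± 0.06 between genotypes averaged over treatments (limma, unadjusted p = 0.0446, adjusted p = 0.679). The brightest probe set of Ppp1cb is of a kind (x_at) that can share probes with other transcripts.

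Of the other PP1 regulatory subunits, Ppp1r7, Ppp1r21 and Ppp1r3c reached an unadjusted p under 0.05 in at least 1 comparison. Ppp1r7 (SDS22), a leucine-rich repeat protein that binds and stabilises PP1, stood at 10.97, 10.91 and 11.12 in control saline arrays and at 11.15, 11.17 and 11.16 in mutant saline arrays, with no overlap. The difference after saline was 0.16 ± 0.07 (limma, unadjusted p = 0.0242, adjusted p = 0.9999), and the exact permutation p was 0.1, the smallest that 3 against 3 arrays allow. After cocaine the difference was 0.01 ± 0.05 and the groups overlapped, at 10.92 to 11.10 in control and 10.94 to 11.12 in mutant mice. Averaged over treatments it was 0.09 ± 0.04 (limma, unadjusted p = 0.048, adjusted p = 0.679). The other probe set of Ppp1r7 overlapped after saline, at 10.75 to 10.97 in control and 10.87 to 10.97 in mutant mice. Its genotype difference was 0.07 ± 0.07 after saline and 0.05 ± 0.04 averaged over treatments. Ppp1r21 stood at 9.78, 9.85 and 9.80 in control saline arrays and at 9.92, 10.00 and 9.93 in mutant ones, a difference of 0.14 ± 0.06 (limma, unadjusted p = 0.0442, adjusted p = 0.9999). After cocaine its genotype difference was -0.02 ± 0.05. Groups of 3 saline arrays that do not overlap were common: 4 of 43 members were wholly higher in mutants (8.18% of named genes) and 2 of 43 wholly lower (3.4%). The 4 were Ppp1r7, Ppp1r21, Ppp2r2d and Ppp4r1, and the 2 were Ppp1r3c and Ppp4r3b.

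Ppp1r3c directs PP1 to glycogen. Its brightest probe set stood at 9.74, 9.88 and 9.80 in mutant saline arrays and at 9.77 to 10.08 in mutant cocaine arrays, and the groups overlapped. The fitted cocaine difference in mutants was 0.16 ± 0.07 (limma, unadjusted p = 0.0477, adjusted p = 0.66). Its other probe set had the opposite sign, -0.44 ± 0.47. The remaining PP1 regulatory members were Ppp1r18, Ppp1r37, Ppp1r3f and Ppp1r8 (NIPP1, a nuclear PP1 partner). Their averaged cocaine differences ran from -0.09 ± 0.05 in Ppp1r8 to 0.12 ± 0.10 in Ppp1r37.

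Of the 6 PP1 inhibitor genes, 2 had higher fitted levels in mutants after cocaine at an unadjusted p under 0.05. So did 484 of 7583 named genes, and 11.6% of all probe sets passed that p in either direction. The 2 inhibitors belong to the CPI-17 family, small proteins that block PP1 holoenzymes once phosphorylated by protein kinase C. Ppp1r14a (CPI-17) stood at 8.34, 8.39 and 8.44 (lowest, median and highest) in control cocaine arrays. The mutant cocaine arrays had 8.94, 8.71 and 8.86 (Arabic) and 8.63, 8.92 and 8.30 (Roman). Of the 6 mutant arrays, 5 were above every control array, and replicate 6 was below every control array. After saline the levels were 8.89, 8.50 and 8.53 in control and 8.41, 8.67 and 8.78 in mutant mice, and they overlapped.

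The genotype difference of Ppp1r14a after cocaine was 0.34 ± 0.10 (limma, SE, unadjusted p = 0.0037, adjusted p = 0.427, and 0.249 to 0.892 over the alternatives). The exact two-sided permutation test gave p = 0.02 from 400 relabellings, which can go no lower than 0.005, without adjustment for the choice of the smallest p. Without mutant cocaine replicate 5 it was 0.28 ± 0.10 (unadjusted p = 0.0093). Within the Arabic-numbered arrays it was 0.43 ± 0.12 and within the Roman-numbered ones 0.24 ± 0.16, or 0.09 ± 0.12 without replicate 5. After saline it was -0.02 ± 0.14, and the interaction was 0.36 ± 0.17 (limma, unadjusted p = 0.0554, adjusted p = 0.992).

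Ppp1r14b stood at 8.56, 8.77 and 8.84 (lowest, median and highest) in control cocaine arrays and at 8.80, 8.91 and 9.10 in mutant cocaine arrays, with an overlap near 8.8. The difference after cocaine was 0.20 ± 0.07 (limma, unadjusted p = 0.0081, adjusted p = 0.427), or 0.16 ± 0.06 without replicate 5. Within the numbering series it was 0.10 ± 0.08 (Arabic) and 0.31 ± 0.11 (Roman). Averaged over treatments it was 0.15 ± 0.06 (limma, unadjusted p = 0.0222, adjusted p = 0.679), with an exact permutation p of 0.0063 from 8000 relabellings (smallest possible 2.5e-04), again unadjusted for its choice. The third family member, Ppp1r14c, differed by -0.05 ± 0.12 after cocaine. Ppp1r1a (inhibitor-1), the relative of DARPP-32 that inhibits PP1 when phosphorylated by protein kinase A, stood at 9.94 to 10.19 in control and 10.03 to 10.31 in mutant cocaine arrays, a difference of 0.11 ± 0.05. Ppp1r2 (inhibitor-2) and Ppp1r11 (inhibitor-3) differed by -0.08 ± 0.07 and -0.01 ± 0.06.

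**Figure D3:**
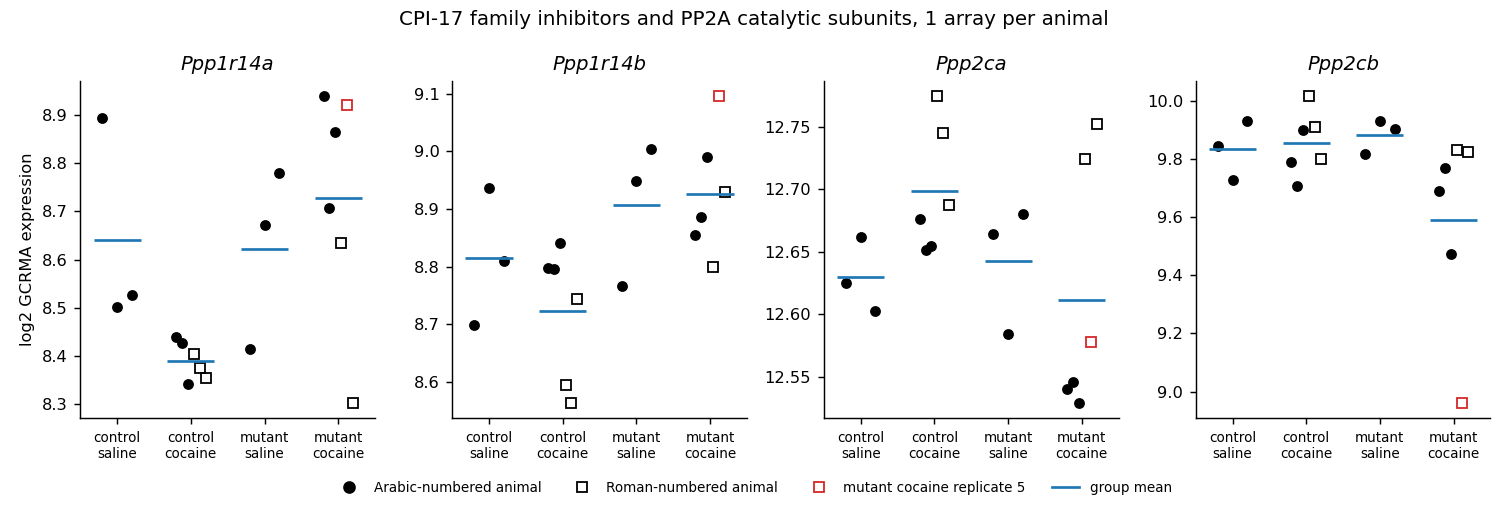
Log2 GCRMA levels (y axes) of the PP1 inhibitor genes Ppp1r14a and Ppp1r14b and of the PP2A catalytic subunits Ppp2ca and Ppp2cb in each array of the 4 groups (x axes), with symbols as filled circles for Arabic-numbered and open squares for Roman-numbered animals, red for mutant cocaine replicate 5 and blue lines for group means. For Ppp1r14a, 5 of 6 mutant cocaine arrays lie above every control cocaine array; replicate 5 is the lowest array of Ppp2cb, at 8.96.

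The brightest probe sets of both PP2A catalytic subunits had lower fitted levels in mutants after cocaine, without passing the threshold. Ppp2ca stood at 12.63, 12.66 and 12.60 in control saline and at 12.66, 12.58 and 12.68 in mutant saline arrays. After cocaine it had a lowest, median and highest level of 12.65, 12.68 and 12.77 in control and of 12.53, 12.56 and 12.75 in mutant arrays. The 3 Arabic-numbered mutants and replicate 5 were below every control cocaine array, and the other Roman-numbered mutants were within the control range. The difference was -0.09 ± 0.03 (limma, unadjusted p = 0.0154, adjusted p = 0.427), or -0.07 ± 0.03 without replicate 5. It was -0.12 ± 0.04 within the Arabic-numbered arrays and -0.05 ± 0.06 within the Roman-numbered ones, where it turned to 0.0024 ± 0.04 without replicate 5. The other probe set of Ppp2ca differed by -0.06 ± 0.06 between genotypes after cocaine, and replicate 5 was its highest mutant cocaine array, at 11.01. Its averaged cocaine difference was 0.08 ± 0.06, against -0.04 ± 0.03 for the brightest.

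Ppp2cb stood at 9.71, 9.85 and 10.02 (lowest, median and highest) in control cocaine arrays and at 8.96, 9.73 and 9.83 in mutant ones, where replicate 5 was the lowest by a wide gap. The difference was -0.26 ± 0.12 (limma, unadjusted p = 0.0427, adjusted p = 0.427), and -0.12 ± 0.06 without replicate 5 (unadjusted p = 0.0582). Over all 11 catalytic subunits of the PP1 to PP6 enzymes, 1 was above 0 for mutant against control after cocaine (Ppp5c), and 3 reached an unadjusted p under 0.05 (Ppp2ca, Ppp2cb and Ppp3ca), all on the lower side (11.6% of all probe sets passed that p in either direction). Their median was -0.08, beside 0.03 over all 7583 named genes, of which 4439 were above 0 and 301 reached that p on the lower side. Without replicate 5, 2 of the 11 were above 0 (Ppp5c and Ppp6c), 1 reached that p (Ppp2ca), and the median was -0.05. Between the 6 mutant and 6 control cocaine arrays, 0 of 43 members were wholly higher in mutants and 0 wholly lower (0.0923% of named genes each way). Without replicate 5 it was again 0 (0.145%) and 0 (0.158%). The scaffold subunits Ppp2r1a and Ppp2r1b, which hold the catalytic and regulatory subunits together, each differed by 0.05, with SEs of 0.04 and 0.06.

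Of the 9 PP2A regulatory subunits and the 4 calcineurin subunits, 3 genes passed the threshold for cocaine in some of the alternative fits, each on the lower side. Ppp2r5c encodes a B56 subunit, Ppp2r2b a B55 subunit abundant in brain, and Ppp3cb the beta catalytic subunit of calcineurin. The brightest probe set of Ppp2r5c stood at 10.92 to 10.98 in the 6 saline arrays and at 10.66 to 10.84 in the 6 Arabic-numbered cocaine arrays. It stood at 10.96 to 11.11 in 5 Roman-numbered cocaine arrays and at 10.40 in mutant cocaine replicate 5. The Arabic-numbered cocaine arrays were thus all below saline and the 5 Roman-numbered ones were not.

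Ppp2r2b showed the same order, at 9.75 to 10.01 after saline, 9.60 to 9.74 in Arabic-numbered and 9.81 to 10.09 in 5 Roman-numbered cocaine arrays, and 9.16 in replicate 5. These 2 were the members whose Arabic-numbered cocaine arrays lay wholly below saline, as did 0.514% of named genes, and 0 members lay wholly above (0.752%). With all 12 cocaine arrays, 0 members lay wholly above (0.514%) or below (0.0527%) saline. Ppp3cb stood at 10.63, 10.38 and 10.66 in control saline and 10.58, 10.57 and 10.47 in mutant saline arrays. The Arabic-numbered cocaine arrays had 10.50, 10.13 and 10.12 in control and 10.13, 10.16 and 10.16 in mutant mice, so that 5 of 6 were below all saline arrays. The Roman-numbered ones had 11.16, 10.97 and 10.80 in control and 10.84, 8.94 and 10.76 in mutant mice, with replicate 5 far below the rest.

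With all 18 arrays the averaged cocaine differences were -0.35 ± 0.25 for Ppp3cb (limma, SE, unadjusted p = 0.176, adjusted p = 0.859), -0.19 ± 0.09 for Ppp2r5c (unadjusted p = 0.0466, adjusted p = 0.859) and -0.18 ± 0.10 for Ppp2r2b (unadjusted p = 0.0835, adjusted p = 0.859). The sizes of these differences come from the 12 Arabic-numbered arrays, because no Roman-numbered animal had saline. Leaving out a Roman-numbered array could therefore not change them. Without mutant cocaine replicate 5 the SEs dropped to 0.07, 0.04 and 0.04, and all 3 passed the threshold (limma, adjusted p = 0.0178, 0.0161 and 0.0332). That was 3 of 43 members, all lower, where 2.86% of all probe sets passed in either direction and 2.11% were lower. Counted like the members, by 1 probe set per gene, 107 of 7583 named genes passed in either direction. In mutant mice alone, 1 of 43 passed without that array, Ppp2r2b at -0.29 ± 0.05 (limma, adjusted p = 0.0469). There 0.205% of all probe sets and 14 of 7583 named genes passed. Ppp2r2b passed under no other alternative in mutant mice. The Arabic-numbered arrays alone gave the same differences with another error term. The same 3 members passed there (limma, adjusted p = 0.0206, 0.0173 and 0.0389), with 3.39% of all probe sets called and 2.62% lower. Ppp3cb and Ppp2r5c passed there with the replicate number as a block (3.03% called) or with blocks of consecutive animal numbers (3.01% called), and all 3 passed with the latter blocks over both series without replicate 5 (3.05% called). Over all alternatives the averaged adjusted p ran from 0.014 to 0.976 for Ppp3cb, 0.0161 to 0.976 for Ppp2r5c and 0.0332 to 0.976 for Ppp2r2b.

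The calls changed with a measure of RNA quality as a covariate. The actin 3′ minus 5′ difference was 1.89 to 2.41 in saline arrays, 2.14 to 2.55 in Arabic-numbered cocaine arrays and 1.57 to 1.91 in 5 Roman-numbered cocaine arrays. With it as a covariate and without replicate 5, 1 of 43 members passed, Ppp2r5c at -0.19 ± 0.04 (limma, adjusted p = 0.0473, with 1.77% of all probe sets called), while Ppp3cb had an adjusted p of 0.0613 and Ppp2r2b of 0.0506. With it in the Arabic-numbered arrays alone, 0 of 43 passed (0.221%), and the differences were -0.30 ± 0.08, -0.18 ± 0.04 and -0.18 ± 0.05 for Ppp3cb, Ppp2r5c and Ppp2r2b (limma, adjusted p = 0.126, 0.0899 and 0.135). In the fit of all 18 arrays the covariate moved the difference of Ppp3cb to -0.19 ± 0.10 (limma, adjusted p = 0.788), and leaving out the series term moved it to -0.16 ± 0.22 (adjusted p = 0.893). The block fits within one series or without replicate 5, and the covariate fits without replicate 5 or in one series, were added after the data were seen.

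**Figure D4:**
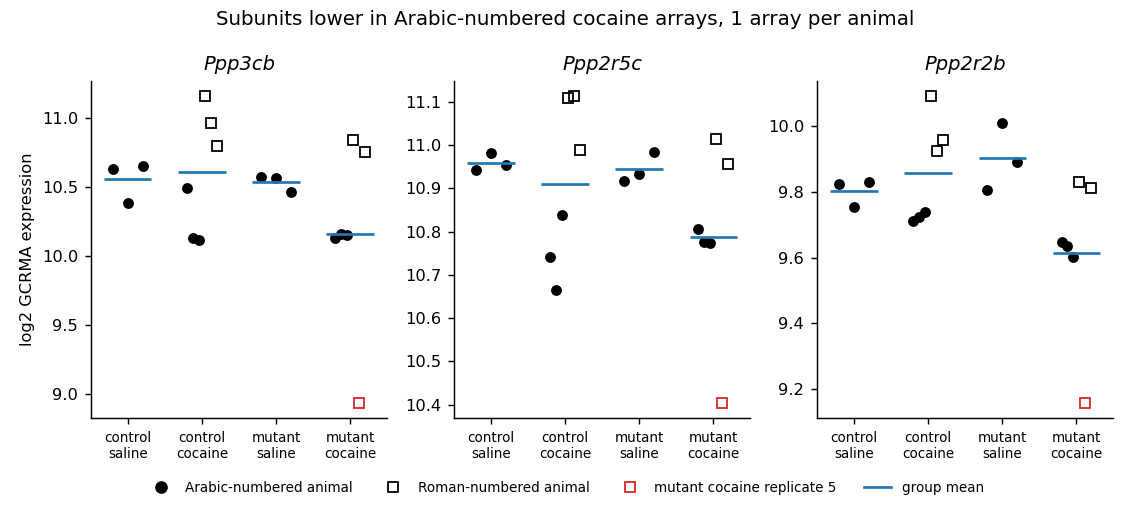
Log2 GCRMA levels (y axes) of Ppp3cb, Ppp2r5c and Ppp2r2b in each array of the 4 groups (x axes); filled circles are Arabic-numbered and open squares Roman-numbered animals, red marks mutant cocaine replicate 5, and blue lines are group means. In the cocaine groups the circles lie low, the black squares high and replicate 5 lowest, at 8.94, 10.40 and 9.16.

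The other probe sets of these genes gave other values. The second probe set of Ppp3cb stood at 6.00 to 6.31 in saline and 6.14 to 6.62 in cocaine arrays. Its averaged cocaine difference was 0.16 ± 0.09, and in control mice it was 0.27 ± 0.12 (limma, unadjusted p = 0.035, adjusted p = 0.9999). Of the 6 probe sets of Ppp2r5c, the other 5 had averaged cocaine differences from -0.31 ± 0.25 to 0.02 ± 0.20. Ppp2r2b had 1 probe set. Among the 19 members with more than 1 probe set, the probe sets differed in sign for 12 in the averaged cocaine comparison and for 7 in mutant against control after cocaine. Ppp2r2a, a B55 subunit, had averaged cocaine differences of -0.04 ± 0.05 for its brightest probe set and of 0.03 ± 0.07 and -0.20 ± 0.09 for the others (limma, unadjusted p of the last = 0.0437, adjusted p = 0.859). In mutant mice the probe sets of Ppp1r11 differed by -0.04 ± 0.08 and 0.33 ± 0.15 with cocaine (limma, unadjusted p of the second = 0.0402, adjusted p = 0.66).

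**Figure D5:**
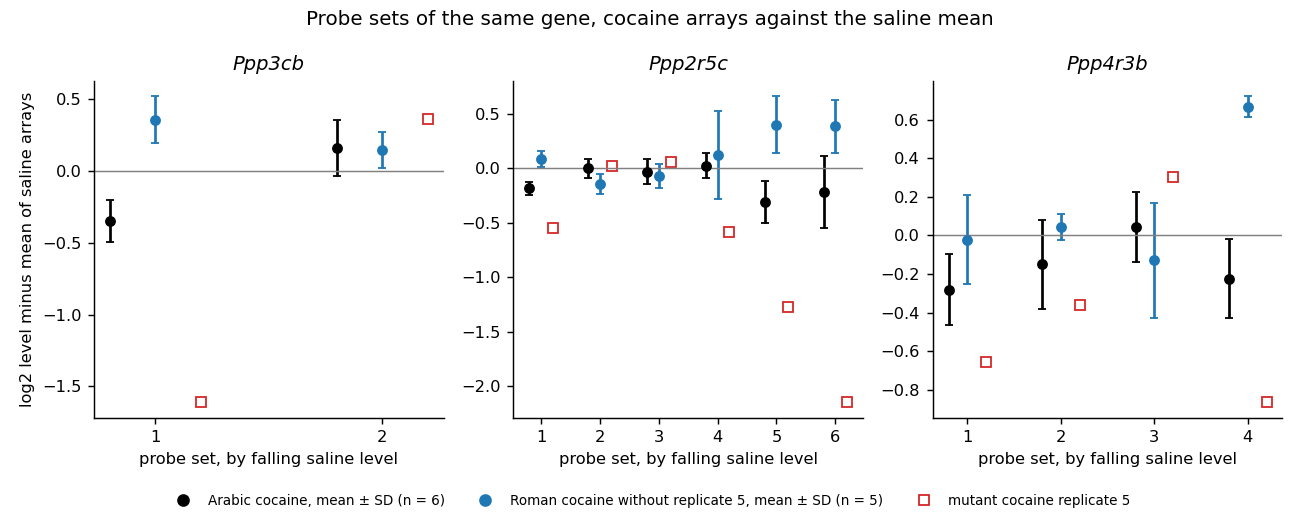
Log2 level of the cocaine arrays minus the mean of the 6 saline arrays (y axis) for each probe set of Ppp3cb, Ppp2r5c and Ppp4r3b (x axis, in order of falling saline level); black points are Arabic-numbered arrays (mean ± SD, n = 6), blue points Roman-numbered arrays without replicate 5 (mean ± SD, n = 5) and red squares mutant cocaine replicate 5. The 2 probe sets of Ppp3cb go opposite ways in the Arabic-numbered arrays, and replicate 5 is far below 0 for some probe sets and above 0 for others.

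The numbering series separated no larger a share of the members than of all probe sets. Of 43 members, 0 differed between Roman- and Arabic-numbered arrays with all 18 arrays (limma, adjusted p under 0.05, 6.16% of all probe sets), and 10 did without mutant cocaine replicate 5 (29.8%), with 6 at a higher and 4 at a lower level in the Roman-numbered arrays. Ppp3cb was higher by 0.69 ± 0.08 (limma, adjusted p = 8.3e-06), Ppp2r5c by 0.27 ± 0.04 and Ppp2r2b by 0.23 ± 0.04. Ppp2ca (0.13 ± 0.03), Ppp3ca (0.11 ± 0.03) and Ppp2r3c (0.20 ± 0.07) were higher as well. Ppp2r3d (-0.43 ± 0.13), Ppp5c (-0.17 ± 0.05), Ppp1r21 (-0.14 ± 0.05) and Ppp1r37 (-0.30 ± 0.10) were lower. All Roman-numbered animals had cocaine, so these values compare cocaine-treated animals, and the labels do not say what the numerals stand for.

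Among the brightest probe sets of the members, that of Ppp2r2b had the smallest p for the interaction. Its cocaine difference was -0.0040 ± 0.13 in control and -0.35 ± 0.13 in mutant mice (limma, unadjusted p = 0.0139, adjusted p = 0.66), and the interaction was -0.34 ± 0.16 (unadjusted p = 0.0536, adjusted p = 0.992). After cocaine the mutant minus control difference was -0.24 ± 0.10 (limma, unadjusted p = 0.0209, adjusted p = 0.427), and -0.13 ± 0.04 without replicate 5. The exact permutation over the 3 and 3 Arabic-numbered mutant arrays gave p = 0.1, the smallest it can give. The other PP2A regulatory members had averaged cocaine differences between -0.07 ± 0.04 (Ppp2r2d) and 0.20 ± 0.14 (Ppp2r3d). Ppp2r2d, a B55 subunit, stood at 9.73, 9.75 and 9.76 in mutant saline arrays and at 9.52 to 9.64 in mutant cocaine arrays, without overlap. The share of all genes without overlap between these groups was not counted. The cocaine difference of Ppp2r2d in mutants was -0.14 ± 0.06 (limma, unadjusted p = 0.0298, adjusted p = 0.66). In control mice that difference was -0.0095 ± 0.06. Its other 2 probe sets differed by 0.04 ± 0.09 and -0.02 ± 0.09 in mutants.

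Calcineurin has a catalytic A subunit, encoded by Ppp3ca, Ppp3cb or Ppp3cc, and a calcium-binding B subunit, encoded here by Ppp3r1. Ppp3ca ran from 13.89 to 13.96 in the saline arrays. After cocaine it had a lowest, median and highest level of 13.89, 13.94 and 14.02 in control and of 13.76, 13.82 and 14.01 in mutant arrays. The Arabic-numbered mutants and replicate 5 were below all saline arrays, and the other mutant cocaine arrays were above them. The cocaine difference in mutants was -0.12 ± 0.05, the averaged one -0.08 ± 0.03 (limma, unadjusted p = 0.0428, adjusted p = 0.859), and the genotype difference after cocaine -0.08 ± 0.03 (unadjusted p = 0.0377). The last turned to 0.03 ± 0.04 in the Roman-numbered arrays without replicate 5. The other probe sets of Ppp3ca differed by -0.14 ± 0.05 (limma, unadjusted p = 0.0074, adjusted p = 0.66) and -0.11 ± 0.05 with cocaine in mutants. Their genotype differences after cocaine were -0.029 ± 0.036 and -0.065 ± 0.034. The first had an interaction of -0.15 ± 0.06 (limma, unadjusted p = 0.0315, adjusted p = 0.992) and differed by 0.12 ± 0.05 between genotypes after saline.

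Ppp3cc, at 5.10 to 6.09 in all arrays, differed by 0.19 ± 0.14 with cocaine. Ppp3r1 stood at 12.92 to 13.07 in saline arrays, 12.97 to 13.12 in control cocaine and 12.75 to 13.21 in mutant cocaine arrays. Its averaged cocaine difference was 0.0030 ± 0.06, and its genotype difference after cocaine was -0.10 ± 0.06. For Ppp3cb the genotype difference after cocaine was -0.45 ± 0.25 with all arrays and -0.13 ± 0.08 without replicate 5.

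PP4, PP5 and PP6 are related to PP2A, and PP4 and PP6 have regulatory subunits of their own. Ppp4r3b, a PP4 regulatory subunit, stood at 8.60, 8.53 and 8.43 in control saline and at 8.36, 8.38 and 8.35 in mutant saline arrays. After cocaine it had a lowest, median and highest level of 7.85, 8.33 and 8.64 in control and of 7.79, 8.19 and 8.68 in mutant arrays. The cocaine arrays spread to both sides of the saline arrays. The averaged cocaine difference was -0.28 ± 0.13 (limma, unadjusted p = 0.0422, adjusted p = 0.859, and 0.0505 to 0.976 over the alternatives). Its other 3 probe sets differed by -0.15 ± 0.10, 0.04 ± 0.11 and -0.22 ± 0.21, and the second of these was 0.27 ± 0.11 higher in mutants after cocaine (unadjusted p = 0.0219). Ppp4r3a had a wide spread in every group, from 5.73 to 6.77 in control saline and from 5.51 to 6.87 in control cocaine arrays, and its averaged cocaine difference was -0.33 ± 0.28. The catalytic subunits Ppp4c (-0.05 ± 0.10), Ppp5c (0.05 ± 0.06) and Ppp6c (-0.08 ± 0.07) had averaged cocaine differences near or below their SEs.

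The spread between arrays had a lower median in the members than over all named genes, a difference that was not tested. The residual SD within groups and numbering series had a median of 0.124 on the log2 scale over the 43 members and 0.147 over all named genes, and 16 of 43 members were above the gene median. It was 0.050 for Ppp2ca, the lowest, and 0.523 for Ppp1r15a, the highest. Ppp3cb had 0.472 with all arrays and 0.135 without mutant cocaine replicate 5. The SD of the members' deviations on that array was 0.355, against 0.085 to 0.241 on the other 17.

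The 56 listed genes were PP2A regulators and assembly factors, PP1 partners, calcineurin partners and targets with the NFAT factors, and the metal-dependent PPM phosphatases. Of these, 33 were measured and 0 passed the threshold in any comparison. For cocaine averaged over genotypes, 0 of 33 reached an unadjusted p under 0.05 (5.09% of all probe sets) and the median was -0.01. For mutant against control after cocaine, 6 were higher and 1 lower at that p, with 11.6% of all probe sets at that p in either direction. Higher were the PP2A methylesterase Ppme1 (0.13 ± 0.04), the PP2A inhibitor Set (0.14 ± 0.05) and the PP2A activator Ptpa (0.26 ± 0.10). So were the calcineurin regulator Rcan1 (0.16 ± 0.07), the calcineurin substrate Dnm1 (0.10 ± 0.04) and, of the NFAT factors, Nfat5 (0.32 ± 0.11). Lower was the PPM phosphatase Ppm1d (-0.38 ± 0.14). Averaged over treatments, the same 6 were higher at that p and 0 were lower (7.13% of all probe sets in either direction). Of 7583 named genes, 411 were higher and 134 lower at that p in this comparison, and 484 and 301 after cocaine.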

How the data were processed

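The authors deposited log2 expression values for 22690 probe sets on 18 arrays, made with GCRMA in R 2.4.1 per the submitters' processing notes. GCRMA corrects background by probe sequence and equalises the arrays, which removes any change in total signal and compresses dim values. The labels give no GCRMA settings. Array medians were 4.98 to 5.19, and the number of arrays limits the precision.

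Probe sets above log2 4 in at least 3 arrays were kept, without 64 control probe sets. Of the 12674 kept, 11749 carried 1 gene symbol, 406 several and 519 none, and only the first kind was named. Each gene stood as its brightest probe set. Limma 3.58.1 in R 4.3.3 fitted the 4 groups and the numbering series with an intensity trend (13 residual and 3.13 prior degrees of freedom) and Benjamini-Hochberg adjustment over all probe sets. The script was tested on simulated data. Because no Roman-numbered animal had saline, the size of the averaged cocaine difference comes from 12 Arabic-numbered arrays; the other 6 affect its error.

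Genes named are the 5 of smallest p in each comparison, catalytic subunits, class leaders, members with an array far from its group, members whose probe sets disagree, and a few known in striatum. Members, lists and tests were chosen with earlier results of these data known. Alternatives changed the filter, probe set rule, scaling, variance model, series term, blocks, array weights, actin covariate, sample choice and threshold, and left out each array. Single genes were also tested by exact two-sided permutation of labels within strata.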

Additional observations from a re-analysis of the deposited data

Results flagged for a closer look

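In 86 groups of 6 cocaine arrays (43 members in each genotype), 7 held an array whose gap to its nearest neighbour was over Dixon's 95% critical share of the group's range, which chance gives in about 1 of 20 groups. Of these, 3 lay on mutant cocaine replicate 5, the array with the high actin 3′ minus 5′ difference. There Ppp3cb (calcineurin A beta) was lowest at 8.94, Ppp2r2b (a B55 subunit) was lowest at 9.16, and Ppp1r18 was highest at 5.56. In mutant cocaine replicate 4, Ppp3cc was highest at 6.09. Ppp6r3, a PP6 regulatory subunit, was lowest in mutant cocaine replicate 6 at 6.88 and in control cocaine replicate 5 at 6.63. Ppp1r18 was lowest in control cocaine replicate 6 at 5.02.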

How the results depend on the processing

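The count of members past the threshold stayed at 0 for cocaine in control mice and for the 4 comparisons with genotype under every alternative run. For cocaine averaged over genotypes it was 3 in Arabic-numbered arrays only, 2 there with a replicate block or with blocks of consecutive numbers, 3 with those consecutive blocks without mutant cocaine replicate 5, and 1 with the actin covariate without that array. Leaving out each array in turn gave 0 to 3 there and 0 to 1 in mutant mice, and the highest values came without mutant cocaine replicate 5. The replicate block over all 18 arrays gave 0 members in every comparison, and 25 probe sets in all for averaged cocaine against 28 without it. Equal replicate numbers were not taken as pairing, since not every correlation of deviations within a number was above 0.1: the means over 6 pairs were 0.078, -0.034 and -0.031 for numbers 1 to 3, and the single pairs of numbers 4, 5 and 6 had 0.34, -0.39 (the array that stands apart) and 0.067. The closest array had the same number for 4 of 18 arrays.

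The median member difference moved as follows. For cocaine in control mice it was -0.048 with the actin covariate without replicate 5 and -0.036 with it in the Arabic-numbered arrays. For mutant against control after saline it was -0.010 with the latter. After cocaine it was -0.016 with array weights, -0.014 with the actin covariate without replicate 5, -0.0092 in the Roman-numbered arrays and 0.0024 there without replicate 5. For the interaction it was 0.0070 and -0.035 with the actin covariate in the same settings. Leaving out each array gave -0.023 to 0.0075 (cocaine in control mice, where the sign turned), -0.074 to -0.039 (in mutant mice), -0.045 to -0.017 (averaged), 0.0073 to 0.034 (genotype after saline), -0.027 to -0.0023 (genotype averaged), -0.060 to -0.012 (genotype after cocaine) and -0.10 to -0.051 (interaction). Of the values for single members, 1276 kept direction and call, 7 newly passed the threshold and 4 reversed. The cocaine difference of Ppp1r3c in mutants was -0.14 with the mean of its probe sets, Ppp2ca (0.0024) and Ppp3ca (0.029) turned after cocaine in the Roman-numbered arrays without replicate 5, and Ppp1r7 turned in the interaction (0.0048) with the actin covariate in the Arabic-numbered arrays. The cause was not tested.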
